A study of Mus musculus with 6 samples.

Results

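The sarcomeric myosin heavy chain genes of skeletal and cardiac muscle fibers were examined in mouse skeletal muscle libraries. The genes were taken by symbol as Myh1, Myh2, Myh3, Myh4, Myh6, Myh7, Myh8 and Myh7b, and all 8 were found among the 24062 genes of the count table. Their annotated roles cover the adult fast genes (Myh4 for type IIb, Myh1 for type IIx and Myh2 for type IIa fibers), the slow genes (Myh7 and Myh7b), the alpha-cardiac gene (Myh6) and the developmental genes (Myh3, embryonic, and Myh8, perinatal). The rule used symbols and no expression value.

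The study asked what estrogen does to the RNA on ribosomes of muscle endothelium, and it compared 3 vehicle libraries (placebo pellets) with 3 E2 libraries (17β-estradiol pellets) after 4 weeks of treatment. The labels give gastrocnemius and soleus of mice aged 4 weeks, and both groups were B6.129S4-Gt(ROSA)26Sorfm1 mice carrying CAG-EGFP/Rpl10a and birA (Wtp/J). The study's methods give an older age, at odds with the labels. By those methods the mice were ovariectomized females in which Cre under the VE-cadherin promoter switched on an EGFP-tagged ribosomal protein L10a in endothelial cells, and ribosomes were pulled down with an antibody to GFP. Each library is labelled with a pair of mouse numbers, and the methods count as many biological replicates per group as there are mouse numbers. Pooling of each pair is not stated in words, so p-values measure the spread between libraries.

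Myosin heavy chains are the motor proteins of the thick filament. Each mature fiber is classed by the heavy chain it uses, from slow, fatigue-resistant type I to the fastest type IIb, and type IIb dominates much of the mouse gastrocnemius while the soleus is rich in type I and IIa. The fast and developmental genes lie side by side in a cluster, and Myh6 and Myh7 form a second, head-to-tail pair.

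Library totals ran from 84823 to 451034 counts, and 1 count was worth 2.22 to 11.8 CPM, the unit of levels here (a gene's counts per 1000000 counts of the library). Vehicle replicates 1 and 2 stood apart from the other libraries. They held 40 and 63 counts over 4 Y-linked genes (Uty, Kdm5d, Eif2s3y and Ddx3y) against 0 in each of the other 4 libraries, although the study describes females. Over the 1682 genes tested, log2(CPM + 1) of these libraries correlated with each other at r = 0.949 but with vehicle replicate 3 at 0.569 and 0.575, and vehicle replicate 3 correlated with the E2 libraries at 0.676 to 0.768. Fold changes, the summed level and differing shares are therefore given with all 6 libraries and with vehicle replicate 3 as the only vehicle library; the latter rests on the shallowest library.

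The members share long stretches of coding sequence, which bears on how reads could be told apart. Myh1, Myh2 and Myh4 lie on chromosome 11 of mm10, at chr11:67200052-67224575, chr11:67171027-67197517 and chr11:67238029-67260446, all on the plus strand, with Myh3 at chr11:67078300-67102291 and Myh8 at chr11:67277124-67308634. Myh7 (chr14:54970684-54994626) and Myh6 (chr14:54941921-54966927) lie on the minus strand, and Myh7b lies at chr2:155611212-155634307 on the plus strand. The coding sequence of Myh4 was 90.1% identical to that of Myh1 and 88.2% to that of Myh2, but 77.4% to that of Myh7 and 69.0% to that of Myh7b. Myh6 and Myh7 were 91.7% identical.

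The longest stretch that the adult fast genes share without a difference is shown first, because bases read from it belong to none of them in particular. It covers coding positions 1549 to 1688, counted from 1 at the first base of the start codon, and in Myh4 it spans exons 14 and 15 (chr11:67246503-67248546, intron included). It is in lower case throughout since no base differs.
Myh1, Myh2 and Myh4: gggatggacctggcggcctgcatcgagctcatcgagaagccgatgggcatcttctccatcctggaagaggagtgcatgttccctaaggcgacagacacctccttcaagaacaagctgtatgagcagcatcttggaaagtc

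The window of 60 bases in which the same genes differ most is shown next, because reads from such places do separate them. Capitals mark the 25 positions at which the genes do not all carry the same base. The window spans exons 28 and 29 of Myh1 and Myh2 and exons 27 and 28 of Myh4, all coding.
Myh1: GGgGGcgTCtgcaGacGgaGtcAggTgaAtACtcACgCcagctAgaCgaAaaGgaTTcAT
Myh2: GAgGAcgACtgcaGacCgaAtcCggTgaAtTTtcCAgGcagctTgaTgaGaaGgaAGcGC
Myh4: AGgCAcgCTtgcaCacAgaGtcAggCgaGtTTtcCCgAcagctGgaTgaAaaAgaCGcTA
Of all 50-base words in its exons, Myh4 held 81.4% that occur in no other member, Myh1 73.3%, Myh2 73.3%, Myh7 78.2%, Myh6 77.5%, Myh8 80.1%, Myh3 96.3% and Myh7b 100%. The sources used here do not state how reads from shared stretches were assigned.

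Myosin heavy chain RNA was abundant in these libraries, and almost all of it was of the adult kind. Of 35509 counts on the 8 genes, 35415 fell on Myh4, Myh1, Myh2 and Myh7, and Myh4 ranked 6 among all genes by summed counts. The members together took 5.10%, 2.63% and 1.63% of all vehicle counts, by replicate, and 1.45%, 1.28% and 1.57% of all E2 counts, with exact 95% binomial intervals no wider than 1.55 to 1.72% for the shallowest library. Intervals here cover counting error only.

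The label of the libraries was set against marker genes. The 7 markers of fibers of either type (Acta1, Ckm, Ttn, Neb, Des, Mb and Ryr1) summed to 27151 to 35017 CPM in vehicle and 17218 to 23613 CPM in E2 libraries. Ttn held most of these counts; without it the sums were 7439 to 11542 CPM in vehicle and 6328 to 8668 CPM in E2. All 7 were tested and none was called, 6 below 0 and 1 above, with a median log2 fold change of -0.52. The 1 above was Acta1, the skeletal actin, at 1.80 (SE 0.54, edgeR adjusted p = 0.0573). Acta1 stood at 2.56 (edgeR adjusted p = 2.56e-05) without vehicle replicate 3 and at 1.84 (edgeR adjusted p = 0.0222) without a filter. In DESeq2 it stood at 1.76 (adjusted p = 0.0272), and against vehicle replicate 3 alone at 0.96. The 14 endothelial markers summed to 259 to 902 CPM in vehicle and 143 to 642 CPM in E2, and all 14 had counts. Endothelial counts over the 6 libraries ranged from 317 for Cdh5 and 233 for Kdr, through 62 for Pecam1, to 4 for Emcn and 2 for Cldn5. Kdr held 93, 118 and 0 counts in vehicle and 2, 10 and 10 in E2 replicates 1 to 3. Its log2 fold change was -2.22 (SE 0.73, edgeR adjusted p = 0.0764), and -2.56 (edgeR adjusted p = 2.56e-05) without vehicle replicate 3. Of 3 endothelial markers tested, 2 were below 0, 1 was above and none was called. Smooth muscle and pericyte markers summed to 70.7 to 149 CPM in vehicle and 85.6 to 134 CPM in E2, and fibroblast markers to 429 to 542 and 438 to 516 CPM. Of 6 heart muscle markers 3 (Nppb, Myl7 and Tnni3) were at 0 in all 6 libraries, and the others had 35 (Actc1), 20 (Tnnt2) and 2 (Nppa) counts; their sum was 0 to 72.7 CPM in vehicle and 15.9 to 35.3 CPM in E2. Of 4 satellite cell markers Pax7 and Myog were at 0, and Myod1 and Myf5 had 6 and 1 counts. The fiber markers thus exceeded the endothelial markers in summed CPM in both groups. Fewer fibers cannot be told apart from less RNA per fiber in bulk libraries. These sums are not corrected for length and no whole-muscle library was at hand, so they do not measure enrichment. By Q-RT-PCR the study reported endothelial genes enriched, and myocyte genes not enriched, in pulled-down RNA relative to whole muscle. Whether these marker levels bear on the values below was not tested.

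Per kilobase of exon, the order of the members in vehicle libraries was Myh4 (4380 ± 2514 CPM per kb, SD, n = 3), Myh2 (313 ± 187), Myh1 (261 ± 114), Myh7 (209 ± 153), Myh3 (6.00 ± 4.54), Myh8 (3.63 ± 3.23), Myh7b (2.88 ± 1.27) and Myh6 (1.74 ± 1.70). Myh2, Myh1 and Myh7 overlapped among themselves, as did the last 4 genes. In E2 libraries Myh1 (274 ± 30.4 CPM per kb) ranked above Myh2 (140 ± 18.7), and their libraries did not overlap. Myh4 (1876 ± 174) led and Myh7 (89.0 ± 37.8) overlapped Myh2. Myh2 exceeded Myh1 in 2 of the 3 vehicle libraries, whereas Myh1 exceeded Myh2 in 3 of 3 E2 libraries.

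**Figure D1:**
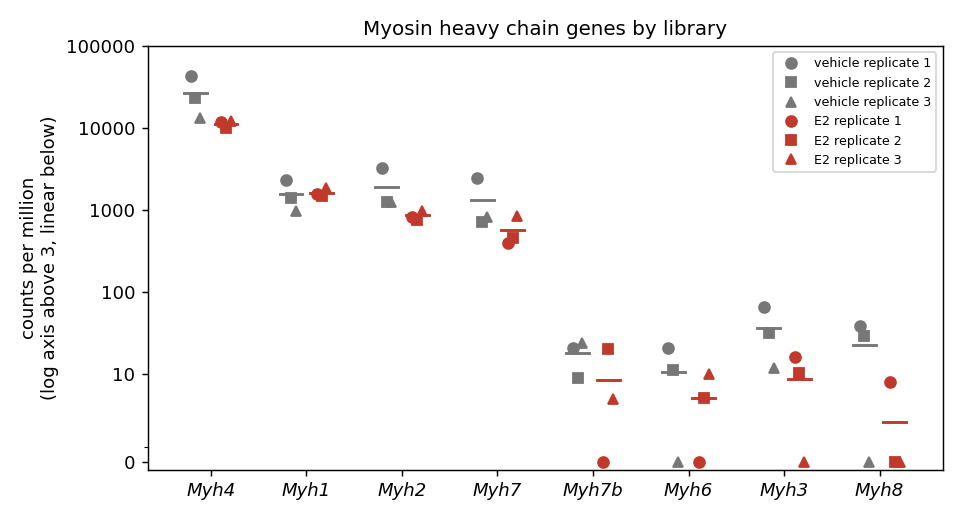
Levels (CPM) of each member in each of the 6 libraries; the axis is logarithmic above 3 and linear below, gray marks vehicle and red marks E2, the symbol gives the replicate and the bar the group mean (n = 3). The 4 adult genes Myh4, Myh1, Myh2 and Myh7 sit far above the other 4, and for Myh4 and Myh2 the E2 libraries lie below the vehicle libraries on this scale, a separation lost with TMM-scaled library sizes.

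Myh4, the type IIb gene, had a lower mean in E2 libraries, but the vehicle libraries differed widely among themselves. Its level was 42920, 22852 and 13286 CPM in vehicle replicates 1 to 3 and 11736, 10089 and 12039 CPM in E2 replicates 1 to 3. The lowest vehicle library lay close above the highest E2 library. With library sizes scaled by TMM, as in the test, the groups overlapped, at 16467 CPM in E2 replicate 3 against 14894 CPM in vehicle replicate 3. The log2 fold change was -1.08 (SE 0.46), with a Benjamini-Hochberg adjusted p of 0.148 from the quasi-likelihood test of edgeR, so the difference did not pass 0.05. Of the genes tested, 14.03% had a log2 fold change as low or lower.

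Myh2, the type IIa gene, had 3220, 1262 and 1238 CPM in vehicle and 818, 761 and 980 CPM in E2 replicates 1 to 3. The groups did not overlap on this scale, and vehicle replicate 1 was far above all others. After TMM scaling they overlapped, at 1341 CPM in E2 replicate 3 against 1291 CPM in vehicle replicate 2. The log2 fold change was -1.02 (SE 0.50, edgeR adjusted p = 0.204). In CPM of library totals, 2 of the 4 members tested thus had no E2 library as high as any vehicle library, as had 12.8% of the 1682 genes tested. After TMM scaling this held for 0 of the 4 members and 10.6% of the genes.

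Myh1, the type IIx gene, did not share that pattern. It had 2288, 1390 and 967 CPM in vehicle and 1556, 1491 and 1831 CPM in E2. The E2 values lay within the vehicle range, and vehicle replicate 3 was the lowest library. The log2 fold change was 0.21 (SE 0.47, edgeR adjusted p = 0.803), and its sign turned, to -0.033, when only genes with at least 10 counts in every library were tested.

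Myh7, the slow type I gene of skeletal fibers and the beta-cardiac gene of the heart, had 2430, 707 and 813 CPM in vehicle and 397, 453 and 836 CPM in E2. E2 replicate 3 was above vehicle replicates 2 and 3, so the groups overlapped. The log2 fold change was -1.07 (SE 0.56, edgeR adjusted p = 0.231).

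None of the 4 members tested passed an adjusted p of 0.05 in either direction. Over all 1682 genes tested, 2.97% passed as lower and 2.5% as higher in E2 (50 and 42 genes; 90 and 33 with library totals in place of TMM). The median log2 fold change of the 4 members was -1.05 beside 0.0054 over all genes tested. At an unadjusted p under 0.05 edgeR would count 1 member, Myh4, as lower, where 15.1% of all genes tested were. DESeq2 and limma-voom also called no member.

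The fold changes of Myh4, Myh2 and Myh7 turned on which vehicle libraries were used. Without vehicle replicate 3, Myh4 (log2 fold change -1.30, adjusted p = 0.00465), Myh2 (-1.15, adjusted p = 0.0139) and Myh7 (-1.22, adjusted p = 0.0229) all passed as lower in edgeR's quasi-likelihood test, while Myh1 stood at 0.074 (adjusted p = 0.869). Without vehicle replicate 1 they moved the other way, to -0.54 for Myh4, -0.42 for Myh2 and -0.27 for Myh7, and none was called. In the fit without vehicle replicate 3, 526 of 2162 genes tested were called lower. With vehicle replicate 3 alone against the E2 libraries, Myh4 stood at -0.11 (SE 0.48), Myh2 at -0.41 (SE 0.49), Myh7 at -0.37 (SE 0.49) and Myh1 at 0.88 (SE 0.53), and no member was called by edgeR. In that fit the lone vehicle library was assumed to vary as the E2 libraries do.

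**Figure D2:**
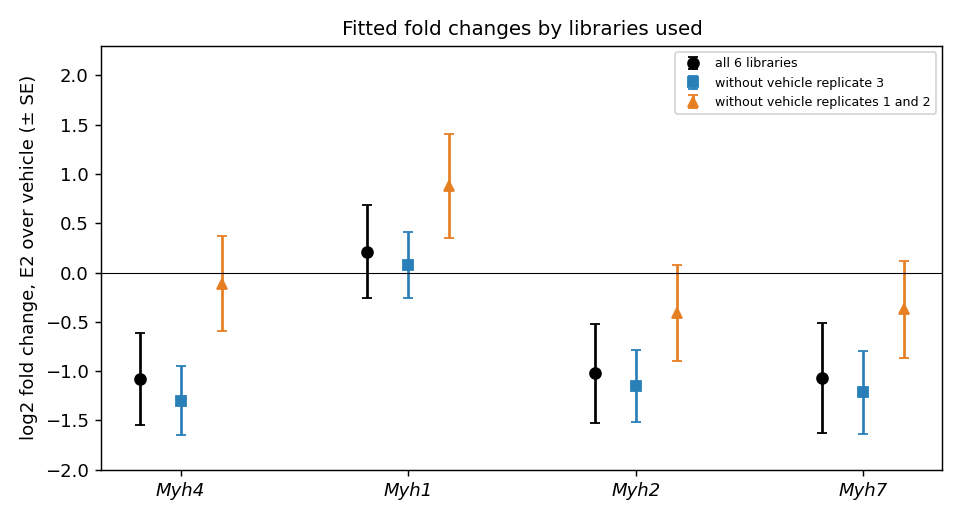
Fitted log2 fold changes, E2 over vehicle, of the 4 members tested, with their standard errors, from all 6 libraries (black), without vehicle replicate 3 (blue) and without vehicle replicates 1 and 2 (orange). Myh4 moved from -1.30 to -0.11 with the vehicle libraries used, and Myh1 lay above the other members under each of the 3 choices.

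Together the 8 genes reached 51004, 26291 and 16340 CPM in vehicle and 14532, 12829 and 15701 CPM in E2 libraries. Each E2 library was under each vehicle library on this scale, with vehicle replicate 3 close above the highest of them. The groups overlapped after TMM scaling, with E2 replicate 3 at 21476 and vehicle replicate 3 at 18317 CPM. They also overlapped with Rn45s left out of the totals, at 27482 and 24433 CPM (exact permutation p = 0.2 on both scales). Rn45s, a ribosomal RNA precursor, took from 28.5% (vehicle replicate 2) to 42.9% (E2 replicate 3) of a library's counts. Other CPM values here include it in the total. The means were 31212 ± 17848 CPM and 14354 ± 1444 CPM (SD, n = 3 each), so that the E2 mean was 0.460 of the vehicle mean. The exact two-sided permutation p was 0.1, the smallest that 3 libraries against 3 can give, so no comparison of this kind could reach 0.05. The difference of means shrank from -16858 CPM to -6962 CPM without vehicle replicate 1 and to -1986 CPM without vehicle replicates 1 and 2.

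Shares of the 8 genes within a library do not depend on the library total, and they showed where the members differed. They were computed on counts per kilobase of exon. Myh4 made up 84.4%, 87.0% and 81.5% in vehicle and 80.8%, 78.7% and 76.8% in E2 libraries. Every E2 library was below every vehicle library, with vehicle replicate 3 less than 1 percentage point above E2 replicate 1. The mean share was lower in E2 by 5.52 percentage points (SE 1.97; exact permutation p = 0.1), and the difference against vehicle replicate 3 alone was -2.74 points.

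Myh1 took a larger share of the 8 genes in E2 libraries. In vehicle replicates 1 to 3 it made up 4.56%, 5.36% and 6.01% of the 8 genes. In E2 replicates 1 to 3 it made up 10.9%, 11.8% and 11.8%. The groups lay far apart, and vehicle replicate 3 was with the other vehicle libraries here. The means were 5.31% ± 0.73 and 11.5% ± 0.55 (SD, n = 3 each), a ratio of 2.16 and a difference of 6.18 percentage points (SE 0.53; exact permutation p = 0.1). Against vehicle replicate 3 alone the difference was 5.48 points. As a share of plain counts, with exact 95% binomial intervals, Myh1 was 5.92% (4.73 to 7.29) in vehicle replicate 3 and 10.7% (9.33 to 12.2) in E2 replicate 1, the closest pair.

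Myh2 took 6.26%, 4.75% and 7.51% of the 8 genes in vehicle and 5.57%, 5.87% and 6.18% in E2. Myh7 took 4.55%, 2.57% and 4.76% in vehicle and 2.61%, 3.37% and 5.08% in E2. Both overlapped between the groups, and the differences of the means, -0.30 (SE 0.82) and -0.27 (SE 1.01) percentage points, were within the spread of the libraries (exact permutation p = 0.7 and p = 1). The share of the adult fast genes together was 95.8% ± 1.18 in vehicle and 96.1% ± 1.22 in E2 (SD, n = 3 each; exact permutation p = 0.9). The balance of fast to slow genes did not differ beyond the spread of the libraries, whereas that of the fast genes among themselves did not overlap between groups: Myh1 took 4.79 to 6.32% of Myh1, Myh2 and Myh4 in vehicle and 11.2 to 12.5% in E2.

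**Figure D3:**
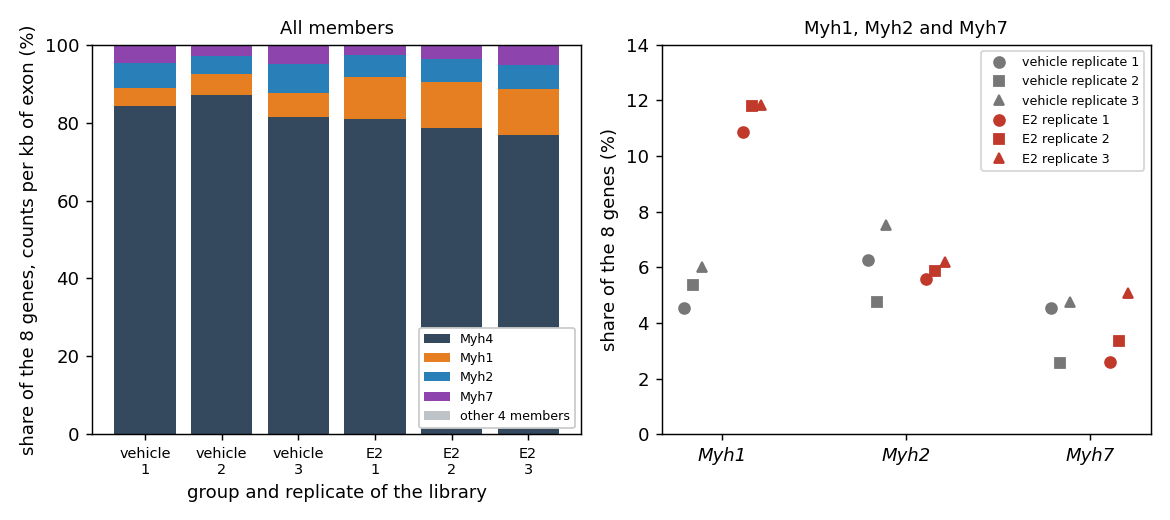
Left, the share of each member in the summed counts per kilobase of the 8 genes, stacked for each library; right, the shares of Myh1, Myh2 and Myh7 alone, gray for vehicle and red for E2, with symbols for replicates. Myh1 lies between 10.9% and 11.8% in E2 libraries and between 4.56% and 6.01% in vehicle libraries, while Myh2 and Myh7 overlap.

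Ratios between members within a library, again per kilobase, were taken over all 6 pairs of the 4 abundant genes. They come from the same counts as the shares, so they restate the shares by pair and are no separate support. The ratio of Myh1 to Myh4 was 0.0540, 0.0616 and 0.0737 in vehicle and 0.134, 0.150 and 0.154 in E2 libraries. The difference of the mean log2 ratios was 1.22 (SE 0.14), or 2.33-fold, and 0.98 against vehicle replicate 3 alone. The ratio of Myh2 to Myh1 was 1.37, 0.886 and 1.25 in vehicle and 0.513, 0.498 and 0.523 in E2, a log2 difference of -1.17 (SE 0.19).

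The ratio of Myh7 to Myh1 also did not overlap, at 0.479 to 0.999 in vehicle and 0.240 to 0.429 in E2, a log2 difference of -1.23 (SE 0.40). All 3 pairs that held Myh1 were thus apart, each with an exact permutation p of 0.1 and an adjusted p of 0.2 over the 6 pairs. These pairs share Myh1, so they are not separate observations. How often other genes were apart was computed for ratios to Myh4 only. The 3 pairs without Myh1 overlapped. Their log2 differences were 0.049 (SE 0.23) for Myh2 to Myh4, -0.0080 (SE 0.43) for Myh7 to Myh4 and -0.058 (SE 0.27) for Myh7 to Myh2. With standard errors of this size, the overlap does not show that these ratios were equal.

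A ratio to Myh4 is itself moved by Myh4, so it was computed for every gene tested. Of 1681 genes, 22% had a ratio to Myh4 above all vehicle libraries in every E2 library, as Myh1 did, and the median log2 difference of that ratio was 0.96 over all genes beside 1.22 for Myh1. Set against the rest of the transcriptome, Myh1 was therefore near the middle, and it is among the myosin heavy chains that it stood apart.

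**Figure D4:**
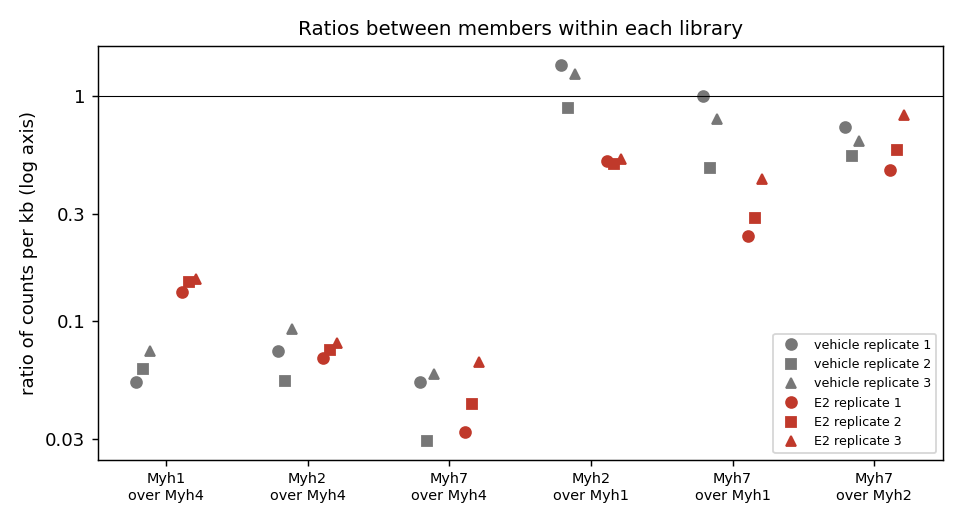
Ratios of counts per kilobase between pairs of the 4 abundant members in each library, on a log axis, gray for vehicle and red for E2; the line marks equal levels. The 3 pairs with Myh1 separate the groups, with Myh1 over Myh4 at 0.134 to 0.154 in E2 and 0.0540 to 0.0737 in vehicle, and the 3 pairs without it overlap.

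The scarce members were Myh3, Myh8, Myh6 and Myh7b, which held 3 to 42 counts together in a library and did not pass the filter on low counts. Myh3, used in embryonic and regenerating fibers, had 19, 14 and 1 counts in vehicle and 2, 2 and 0 in E2 libraries. Myh8, the perinatal gene, had 11, 13 and 0 counts in vehicle and 1, 0 and 0 in E2. For both genes nearly all counts fell in vehicle replicates 1 and 2, the deepest libraries and the ones with Y-linked counts.

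Pooled over libraries, the rate of Myh3 in E2 was 0.185 of that in vehicle (95% counting interval 0.0476 to 0.518) and that of Myh8 was 0.0654 (0.00159 to 0.401). Across libraries the exact permutation p was 0.2 for Myh3 and 0.4 for Myh8, and in the edgeR test without the filter their adjusted p were 0.154 and 0.106. Against vehicle replicate 3 alone the counting interval for Myh3 ran from 0.0639 to 31.8, and Myh8 had 0 counts there, so no difference could be detected at that depth. In percent of the members' counts, the scarce genes took 0.216 to 0.304% in vehicle and 0.095 to 0.275% in E2.

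Myh6, the alpha-cardiac gene, had 6, 5 and 0 counts in vehicle and 0, 1 and 2 in E2 libraries. Myh7b, an ancient slow-type gene that hosts a microRNA, had 6, 4 and 2 counts in vehicle and 0, 4 and 1 in E2. Both overlapped (exact permutation p = 0.5 and p = 0.2). A count of 0 allows up to 3 counts, or 14.9 to 35.4 CPM in the libraries in which a member was at 0. Myh6 shares 20.2% of its 50-base words with Myh7, which had 1398 counts beside 14 for Myh6, so its few counts are uncertain.

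The microRNA genes that lie within introns of members were read from the same table. Mir208a in Myh6, Mir208b in Myh7 and Mir499 in Myh7b had 0 counts in all 6 libraries. The mature sequences, from RefSeq (GRCm38.p6), are shown with the seed, bases 2 to 8, in capitals, because hosts of different roles carry microRNAs of similar sequence.
mmu-miR-208a-3p: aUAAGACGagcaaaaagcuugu
mmu-miR-208b-3p: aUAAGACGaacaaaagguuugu
mmu-miR-499-5p: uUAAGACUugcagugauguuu
The sequences shown for Myh6 and Myh7 have the same seed, and that of Myh7b differs from it at base 8 only.

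Myh7 overlaps Mhrt, a long noncoding RNA on the opposite strand that is listed in the table as D830015G02Rik (matched through its RefSeq synonym). Its annotated span in mm10 is chr14:54968678-54974349 on the plus strand, and 484 of its 1214 exon bases overlap exons of Myh7. It had 2717, 1222 and 1911 counts in vehicle and 945, 1556 and 2415 in E2 libraries, and ranked 8 among all genes by summed counts. The sources used here do not state whether counting used strand, and reads from the overlap could belong to either gene.

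In CPM this RNA was at 9407, 2709 and 22529 in vehicle and 7504, 7837 and 12014 in E2 libraries. Vehicle replicate 3 was highest and vehicle replicate 2 lowest, so the E2 values lay within the vehicle range. The log2 fold change was -0.20 (SE 0.58, edgeR adjusted p = 0.848), and it ran from 0.83 without vehicle replicate 3 to -1.16 with that library as the only vehicle library. It had 3.87 and 3.83 counts per Myh7 count in vehicle replicates 1 and 2, 27.7 in vehicle replicate 3 and 14.4 to 18.9 in E2 libraries. Vehicle replicates 1 and 2 thus stood apart from the other 4 libraries in this ratio, irrespective of treatment. Opposite-strand genes with at least 50 bases of exon overlap were also annotated for Myh1 (Myhas), Myh2 (9430073C21Rik), Myh6 (Gm49130) and Myh7 (Gm29015 and Gm31251), and they were not analysed here.

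**Figure D5:**
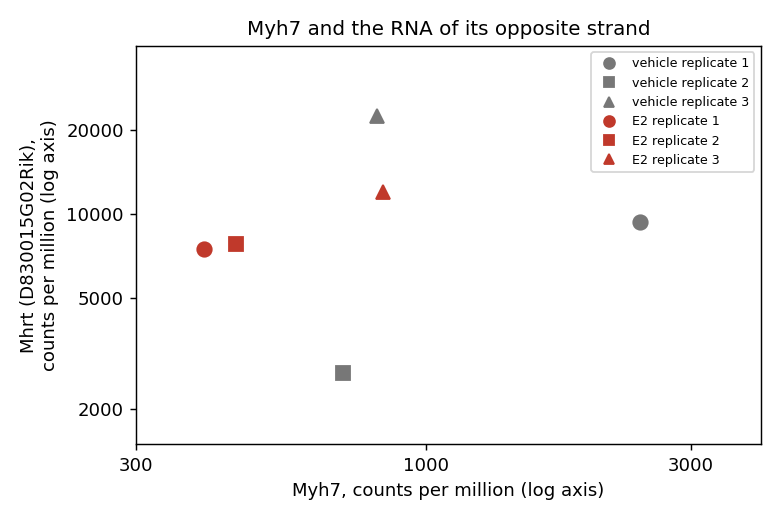
CPM of Myh7 (horizontal) and of Mhrt on its opposite strand (vertical) in each library, both on log axes, gray for vehicle and red for E2, with symbols for replicates. Vehicle replicates 1 and 2 lie lowest in Mhrt for their Myh7 level, and vehicle replicate 3 highest at 22529 CPM.

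The genes whose log2(CPM + 1) followed Myh4 most closely over the 6 libraries were Kpnb1 (Pearson r = 0.989), Casq1 (0.982), Myh2 (0.949), Nkx2-1 (0.938) and Adssl1 (0.936). Casq1 encodes the calsequestrin of fast fibers. These values describe 6 libraries, and the high values of vehicle replicates 1 and 2 weigh on all of them. Among 1681 genes Myh2 ranked 3, Myh7 ranked 104 (r = 0.859) and Myh1 ranked 559 (r = 0.508).

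Other genes of the thick filament gave values on both sides of 0. Of 10 genes for sarcomeric myosin light chains and myosin-binding proteins, 7 were tested and none was called, with a median log2 fold change of 0.085 beside 0.0054 over all genes tested. Mylpf, the fast regulatory light chain, stood at 0.67 (SE 0.47, edgeR adjusted p = 0.376) and, against vehicle replicate 3 alone, at 0.56. Mybpc2, the fast myosin-binding protein C, stood at -1.02 (SE 0.47, edgeR adjusted p = 0.176), close to Myh4, at -1.16 (adjusted p = 0.00562) without vehicle replicate 3 and at -0.31 (adjusted p = 0.861) with it as the only vehicle library.

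Fiber type markers other than the members gave no common direction. Of 9 fast fiber markers all were tested and none was called, 6 below 0 and 3 above, with a median of -0.18. Their summed level was 34580 to 38174 CPM in vehicle and 42883 to 64114 CPM in E2, and without Tnnc2, the fast troponin C with the most counts, 16328 to 24858 CPM in vehicle and 13134 to 19573 CPM in E2. Tnnc2 stood at 1.35 (SE 0.41, edgeR adjusted p = 0.0572). Tnnc2 passed in DESeq2 (adjusted p = 0.0291), in limma-voom (adjusted p = 0.0438) and without vehicle replicate 3 (edgeR adjusted p = 0.00042). It did not pass in the other 5 edgeR fits with 1 library left out (adjusted p 0.138 or above), with other scalings or filters (0.0619 to 0.186), with the replicate block (0.0611) or against vehicle replicate 3 alone (0.92, adjusted p = 0.584). Tnnt3, the fast troponin T, stood at -1.19 (SE 0.47, edgeR adjusted p = 0.126) and Casq1 at -1.002 (SE 0.47, edgeR adjusted p = 0.191). Both passed as lower without vehicle replicate 3 (edgeR adjusted p = 0.00133 and 0.00438), and they stood at -0.20 and -0.056 against it alone. Of 8 slow fiber markers 4 were tested and none was called, 1 below 0 and 3 above, with a median of 0.24. The 8 summed to 1073 to 2815 CPM in vehicle and 1271 to 1652 CPM in E2. The 1 below was Tnnt1, the slow troponin T with the most counts of this list, at -0.78 (SE 0.48, edgeR adjusted p = 0.312). It passed as lower without vehicle replicate 3 (-0.97, edgeR adjusted p = 0.0177).

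Of 10 genes for myosin folding, phosphorylation and turnover, 9 were tested, 8 of them below 0, as were 49.7% of all genes tested, and the median was -0.59. Fbxo32, the ubiquitin ligase atrogin-1 of muscle wasting, was called lower at -1.76 (SE 0.47, edgeR adjusted p = 0.0380) and was picked after its values were seen. Its call held in 1 of 6 fits with 1 library left out, that without vehicle replicate 3 (adjusted p = 0.00231), and the others gave up to 0.253. It was also lost in DESeq2 (adjusted p = 0.0598), limma-voom (adjusted p = 0.0908), edgeR without a filter (adjusted p = 0.105), edgeR with the replicate block (adjusted p = 0.137) and edgeR with vehicle replicate 3 as the only vehicle library (-1.32, adjusted p = 0.733). Its fold change was -1.61 to -1.88 with 1 library left out and -1.68 to -1.86 in DESeq2, limma-voom, the block and without a filter. Trim54, a RING finger protein of the sarcomere, stood at -1.07 (SE 0.46, edgeR adjusted p = 0.152) passed without vehicle replicate 3 (adjusted p = 0.00422) and stood at -0.32 (adjusted p = 0.874) against it alone. Mylk2, the skeletal myosin light chain kinase, stood at -0.27 (SE 0.44, edgeR adjusted p = 0.741), and at -0.056 against vehicle replicate 3 alone. Trim63, the ubiquitin ligase MuRF1, was the tested gene of the list above 0, at 0.29 (SE 0.46, edgeR adjusted p = 0.731), and stood at 1.32 against vehicle replicate 3 alone.

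Of 6 other myosin heavy chain genes, which serve nonmuscle cells, smooth muscle and specialised muscles, 3 were tested and none was called. Myh9, a nonmuscle gene, stood at -1.18 (SE 0.58, edgeR adjusted p = 0.203) and Myh11, the smooth muscle gene, at -1.32 (SE 0.56, edgeR adjusted p = 0.141). Both passed without vehicle replicate 3 (adjusted p = 0.00244 and 0.000627) and turned positive with vehicle replicate 3 as the only vehicle library, at 0.59 and 0.92. Myh14, the other gene tested, stood at -0.29 (SE 0.54, edgeR adjusted p = 0.777). It stood at 0.45 without vehicle replicate 1, at 0.17 without E2 replicate 2 and at -0.054 against vehicle replicate 3 alone. The median of the 3 genes was -1.18. Of 14 regulators of fiber type, 5 were tested and none was called, with a median of -0.29. Mef2c, a transcription factor of the muscle program, stood at -0.29 (SE 0.44, edgeR adjusted p = 0.715), and Mef2d, of the same family, at -0.10 (SE 0.47, edgeR adjusted p = 0.912). Against vehicle replicate 3 alone they stood at 0.090 and 0.75.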

How the data were processed

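RNA of GFP-tagged ribosomes from skeletal muscle was sequenced by the authors in 6 libraries. The deposited values are whole-number counts per gene symbol, not normalized; the submitters' notes name bcl2fastq 2.17, FastQC 0.11.2, STAR 2.5.3a, featureCounts (Subread 1.6.0) and mm10. Of multi-mapping reads and strand the sources used here say nothing on the counting; the labels name a stranded SMARTer kit, whereas the study's methods name an ARTseq/TruSeq Ribo Profile kit.

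Counts were tested with edgeR 4.0.16 (R 4.3.3): filterByExpr, TMM factors, the quasi-likelihood test and Benjamini-Hochberg adjustment over the 1682 genes tested, called at adjusted p under 0.05; the SE of a log2 fold change is its size divided by the square root of the F statistic. Levels are CPM of the whole column total. Summed levels, shares and ratios were compared by exact two-sided permutation tests over libraries (scipy 1.17.1); the interval of a ratio of pooled counts is exact and conditional on their sum. Exon lengths, coordinates and sequences came from GENCODE M21 (mm10), using transcripts matched to RefSeq; coding sequences were aligned with MAFFT 7.526.

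All 8 members are named. Members and gene lists were chosen with earlier results of these data known. From each list up to 4 of the genes with most counts are named, with the 5 genes most correlated with Myh4. Fbxo32, Trim63, Myh14, Tnnc2, Tnnt3, Tnnt1, Casq1, Acta1, Kdr and the markers given as absent or scarce were named after their values were seen. Alternatives were RLE scaling, library totals, other filters, DESeq2 1.42.0, limma-voom 3.58.1, a replicate block, other length measures and left-out libraries; leaving out vehicle replicates 1 and 2 together, TMM-scaled CPM of single members and using exons of all transcripts were chosen after seeing the data. The test was first run on simulated counts.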

Additional observations from a re-analysis of the deposited data

How the results depend on the processing

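The genes called lower over the whole table, 50 from all libraries, numbered 90 with library totals only, 132 without a filter, 0 with at least 10 counts in every library (89 at an unadjusted p under 0.05 in edgeR), 9 in limma-voom, 1 with vehicle replicates 1 and 2 left out, and 2 to 526 with 1 library left out. The genes called higher, 42, numbered 33 with library totals only, 31 without a filter, 63 in limma-voom, 11 with at least 10 counts in every library, 6 with vehicle replicates 1 and 2 left out and 6 to 477 with 1 library left out. DESeq2 called 49 lower and 47 higher. Library totals only moved the median log2 fold change of all genes to -0.15.

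Replicate numbers are shared by the groups, but the sources do not say that they pair the libraries, so the numbers were not taken as pairs. Deviations of same-numbered libraries from their group means correlated at r = -0.13, 0.016 and -0.19. With 3 libraries per group, and vehicle replicates 1 and 2 apart from replicate 3, these values cannot show that pairing was absent. With the replicate block, 1 gene was called lower and 7 higher, and no member was called. Members called lower, 0 from all libraries, numbered 0 to 3 with 1 library left out, the 3 being Myh4, Myh2 and Myh7 without vehicle replicate 3. Myh1 changed sign with at least 10 counts in every library (-0.033).

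With vehicle replicate 3 as the only vehicle library, the difference in summed level was -1986 CPM. The differences in share were then -2.74 percentage points for Myh4, 5.48 for Myh1, -1.64 for Myh2 and -1.07 for Myh7. The share differences of Myh2 and Myh7 changed sign between settings. With 1 library left out they ran from -1.01 to 0.37 points for Myh2 and from -0.97 to 0.27 for Myh7. On pooled counts they were 0.25 and 0.18 points. The Myh1 share stayed higher in E2 by 5.81 to 6.53 points with 1 library left out, by 6.10 on plain counts, 6.69 on sequence unique to each member, 5.95 on exons of all transcripts and 6.61 on pooled counts.

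Mhrt (D830015G02Rik) turned positive in limma-voom (0.28), with the replicate block (0.21), without vehicle replicate 3 and without E2 replicate 2 (range -0.74 to 0.83 with 1 library left out; -1.16 with vehicle replicate 3 alone), as did Mylk2 without E2 replicate 2 (range -0.48 to 0.029), Mef2d without vehicle replicate 2, E2 replicate 1 or E2 replicate 2 (range -0.28 to 0.29), Myh14 without vehicle replicate 1 or E2 replicate 2 (range -0.80 to 0.45) and, with vehicle replicate 3 alone, Myh9 (0.59), Myh11 (0.92), Mef2c (0.090) and Mef2d (0.75). The separation of the groups in CPM of Myh4, Myh2 and the sum of the 8 genes was lost after TMM scaling. The causes were not tested. Depth limits the 4 scarce members most: 3 counts are worth 6.65 to 35.4 CPM.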
